A study of Homo sapiens with 12 samples.

Results

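PC9 is a human lung adenocarcinoma line whose growth depends on an activating mutation of EGFR, the epidermal growth factor receptor. Gefitinib is a small molecule that blocks the kinase of that receptor. The comparison described here is that of PC9 cells grown alone with gefitinib at 0.5 µM against PC9 cells grown alone with the solvent DMSO. Of the 12 samples of the series, 6 belong to it, 3 in each group, chosen by their titles. The other 6 are PC9 cells that shared a well with MRC-5 lung fibroblasts behind an insert, 3 without and 3 with gefitinib at 0.5 µM. Their levels are described only where the effect of the drug alone is set against its effect in co-culture. They also took part in the normalization, the filter, the choice of probe and the estimate of spread behind each test. All 12 samples carry the same description of treatment, which puts gefitinib after 24 h, washes with PBS before co-culture in EMEM with 10% FCS, and a co-culture of 48 h through pores of 1 µm. Which of these steps the monocultures went through, how long they were with the drug and what medium they had is not stated in the labels. All samples come from a single cell line and nothing states that the 3 samples of a group were separate cultures, so p-values measure the spread between these samples alone, which may be technical.

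When the kinase of EGFR is blocked in cells that depend on it, signalling through ERK and through AKT and mTOR drops and the cells leave the division cycle. Growing cells spend much of their transcription on nucleotides, ribosomes, folding and nuclear transport, while resting and differentiating epithelial cells spend more on lysosomes, secreted and surface proteins and enzymes that clear foreign compounds. The account below goes through such functions, with the genes sorted into families by symbol, and passes over the cell cycle, ERK output, interferon and MHC genes.

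Expression was read on 6 Illumina bead arrays, each with between 20917 and 22135 probes above background, and the levels below are log2 intensities after background correction and quantile normalization. Across genes, arrays correlated at 0.9886 to 0.9902 within the DMSO group, at 0.9898 to 0.9901 within the gefitinib group and at 0.9514 to 0.9534 between the groups. Of 13514 genes tested with limma, 2846 (21.1%) rose and 2665 (19.7%) fell at a Benjamini-Hochberg adjusted p under 0.05, together 40.8%, and these shares are the background for each count below. By at least 1 log2 unit 788 genes rose (5.83%) and 587 fell (4.34%). By at least 3 log2 units 35 rose and 7 fell. Ordered by level into 4 equal bins, 6.36% rose and 3.91% fell in the dimmest bin, with a median standard error of 0.210 log2 units, against 28.0% and 28.0% in the brightest, with 0.101. Every "rose" or "fell" below refers to this limma test with 3 arrays per group, and changes are log2 gefitinib minus DMSO, given with the moderated standard error where an error follows. Named genes without an error had one between 0.08 and 0.31. Folds given as at least a value are bounds on the background-corrected scale only. The groups of arrays did not overlap for 50% of all genes. When arrays were scaled to a common median instead, the median of all genes moved from 0.0028 to -0.12 and the share of called genes that rose went from 51.64% to 32.96%, so small rises depend on the scaling. Without background correction the changes of 76 of 205 named genes were smaller by over 1.5 times, at most 2.96 times. With the authors' normalized values 63 were smaller by over 1.5 times, as in IGFBP5 (2.51 in place of 4.20), FOLR1 (2.32 in place of 3.93) and NLRP7 (2.02 in place of 3.64). With the mean of a gene's probes in place of the brightest, 14 were smaller by over 1.5 times, among them GSTM2 (1.36), NPTX1 (-1.44), PSMB9 (1.25), PTPRR (1.1), GALNT16 (-0.79) and KMT2E (0.47).

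The cells carried the markers of an epithelial line. All 10 epithelial markers with a probe were above background on all 6 arrays, and 6 of them rose and 2 fell. Lung lineage markers were largely absent, with NKX2-1, SFTPA1 and SFTPC above background on 0 of 6 arrays, and 1 of 9, FOXA1, above background on all 6. The fibroblast markers COL3A1, LUM, THY1, PDGFRB, FAP and FBN1 and the leukocyte markers PTPRC, TYROBP and FCER1G were above background on 0 of 6 arrays. Other markers on these lists were above background on all 6, namely COL1A1, MFAP5, S100A4, ACTA2 and VIM of the fibroblast list, and CD68, CSF1R and ITGAM of the leukocyte list. The mean log2 level of the tested leukocyte markers ran from 5.92 to 6.04 with DMSO and from 6.36 to 6.47 with gefitinib. That of the tested fibroblast markers ran from 6.79 to 6.97 and from 7.02 to 7.08. That of the 4 tested endothelial markers did not rise, running from 4.92 to 5.31 and from 4.86 to 5.01. Of these VWF rose and PECAM1 fell. Of the 6 tested leukocyte markers 3 rose and 1 fell, while MS4A1 and LYZ did not pass. Of the 8 tested fibroblast markers 2 rose, COL1A1 and MFAP5, and 1 fell, VIM. S100A4 (-0.30) and ACTA2 (-0.31) were lower without passing, and COL1A2, COL6A3 and DCN did not pass either. In some alternatives S100A4 passed as a fall, as under median scaling (-0.57, adjusted p = 0.0203 by limma). ITGAM, an integrin chain of myeloid cells, rose by 1.84 ± 0.19, and MFAP5, a matrix microfibril protein, rose by 1.52 ± 0.14. The collagen chain COL1A1 rose by 1.36 ± 0.27, and the growth factor receptor CSF1R and the coreceptor CD14, the latter above background on 1 of 3 DMSO arrays, by 0.97 ± 0.21 and 0.67 ± 0.22. The intermediate filament VIM fell by 0.92 ± 0.17 and the lysosomal protein CD68 by 0.37 ± 0.11. The call of CD14 ended under median scaling and without DMSO array 1 or 2 or gefitinib array 1 or 3 (adjusted p from 0.0597 to 0.116 by limma), and that of CD68 without DMSO array 1 (0.0892) or gefitinib array 2 (0.0881). The part of other cell types in these changes was not tested.

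The families whose members fell most often make nucleotides and the machines of growth. Of 23 tested genes of folate and one-carbon metabolism, which supplies carbon units for nucleotide synthesis, 15 fell (65.2%) and 3 rose, with a median of -0.62 beside 0.0028 for all genes. PSAT1, an aminotransferase of serine synthesis, read 10.27, 10.56 and 10.21 with DMSO and 8.77, 8.68 and 9.03 with gefitinib. TYMS, the thymidylate synthase, read 11.71, 11.59 and 11.58 with DMSO and 10.14, 10.14 and 10.10 with gefitinib. In both the groups lay apart by more than the spread of their arrays, and PSAT1 fell by 1.52 ± 0.12 and TYMS by 1.5 ± 0.10. MTHFD2, a mitochondrial folate enzyme, fell by 1.09 ± 0.12, and SLC19A1, the reduced folate carrier, fell by 0.95 ± 0.15. The opposite change belonged to FOLR1, a folate receptor that takes up folate by endocytosis, which read 5.26, 4.53 and 4.67 with DMSO and 8.80, 8.71 and 8.73 with gefitinib. It was above background on 2 of 3 DMSO arrays, all 3 gefitinib arrays were higher than every DMSO array, and it rose by 3.93 ± 0.21. MAT2B, a subunit of the enzyme that makes the methyl donor S-adenosylmethionine, rose by 0.45 ± 0.12, a call that ended under median scaling (0.17) and with the mean of its probes (0.24).

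Falls also outnumbered rises in purine and pyrimidine synthesis, with 12 of 20 genes falling, 1 rising and a median of -0.48. The steps of the purine pathway were among them, with GMPS, which makes GMP, at -1.09, PAICS at -0.95 and the IMP dehydrogenases IMPDH1 and IMPDH2 at -0.84 and -0.76. PRPS1, which makes the ribose phosphate precursor, rose by 0.71 ± 0.09, while its relative PRPS2 fell by 0.67 ± 0.11.

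Polyamines are small cations needed for growth, and genes of their synthesis and breakdown moved in both directions. The synthesis genes AMD1, ODC1 and SRM fell by 1.28 ± 0.12, 1.07 ± 0.09 and 1.0 ± 0.13. EIF5A, the factor that carries a modified residue made from spermidine, fell by 0.87 ± 0.10. SAT1, the acetyltransferase that starts polyamine breakdown, read 9.79, 9.87 and 9.76 with DMSO and 11.57, 11.61 and 11.53 with gefitinib, so that the groups did not overlap, and it rose by 1.76 ± 0.10. SAT2 and the oxidase PAOX rose by 0.52 and 0.49, both calls that ended under median scaling, while the spermine oxidase SMOX fell by 0.65 ± 0.19, a call that ended without DMSO array 1 (-0.54, adjusted p = 0.0634 by limma) or gefitinib array 2 (-0.43, 0.0576). Of the 18 genes of the family, 9 did not pass the test, and the median of all 18 was -0.27.

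**Figure D1:**
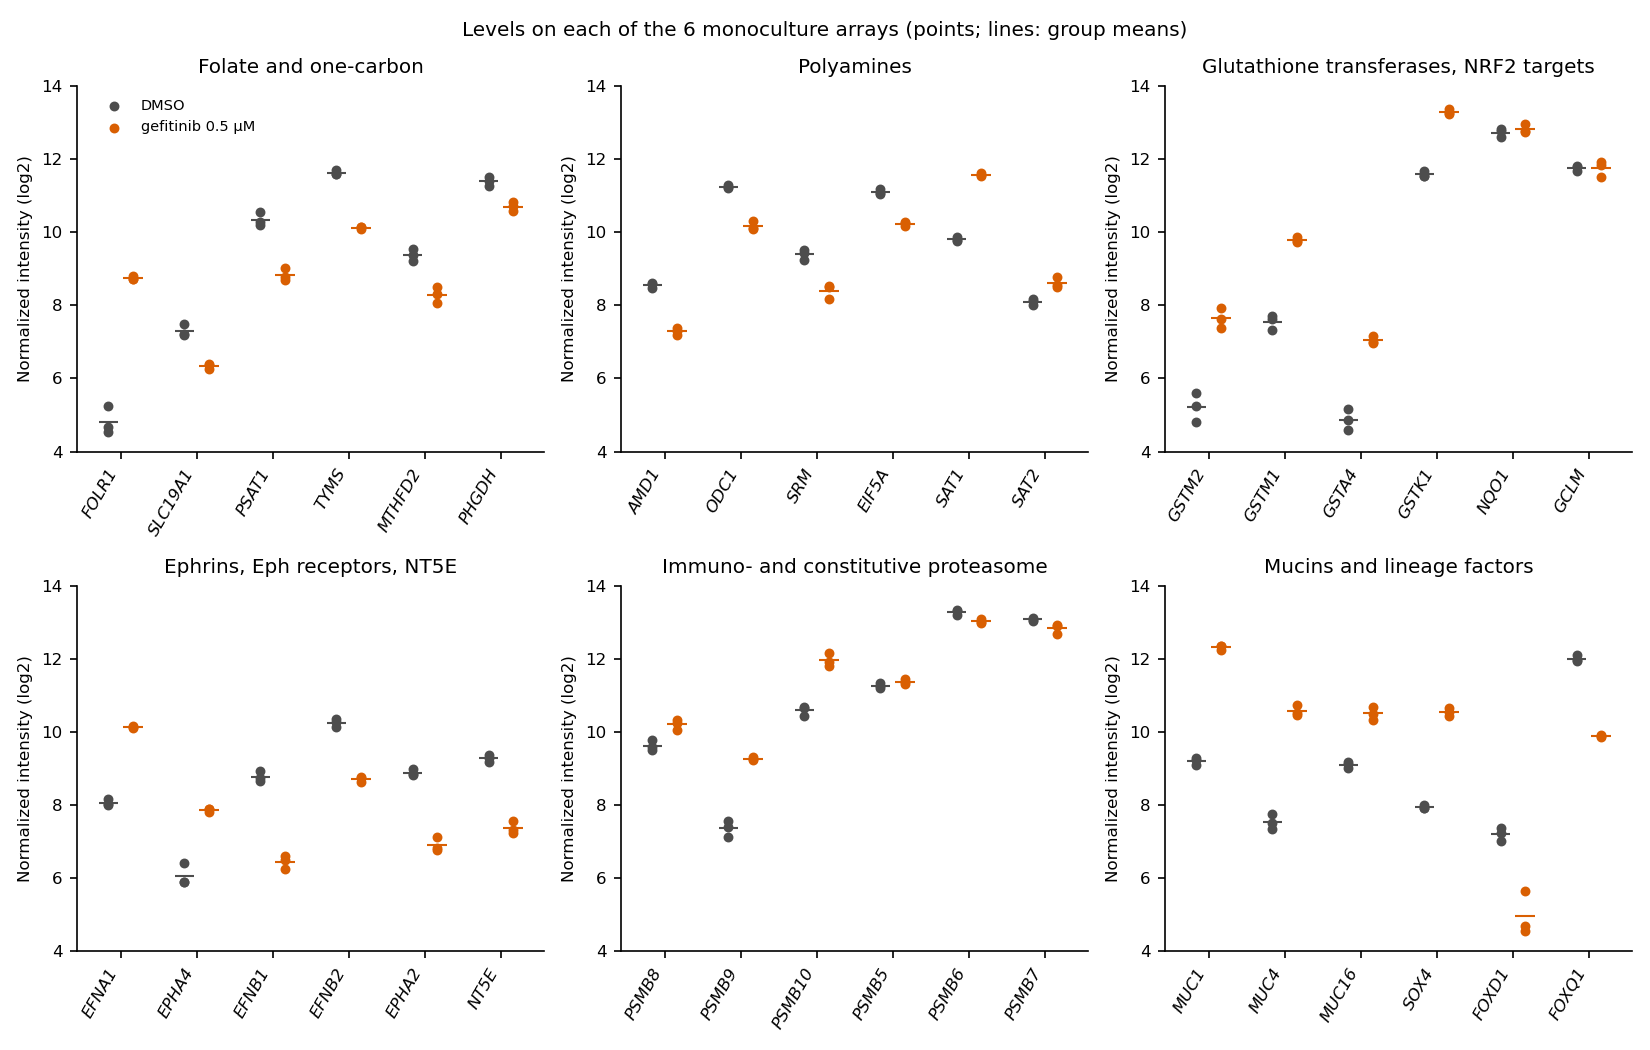
Log2 normalized intensity on each of the 3 DMSO and 3 gefitinib arrays for genes of 6 groups of function; points are arrays and lines are group means. FOLR1, SAT1, GSTM2, EFNA1, PSMB9 and MUC1 lie higher on all gefitinib arrays, TYMS, ODC1, EFNB1 and FOXQ1 lie lower on all of them, and the groups of the NRF2 targets NQO1 and GCLM lie close together.

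In the families of folding, nuclear transport and splicing falls outnumbered rises. Of the 9 chaperonin genes of the CCT complex, which folds actin and tubulin, 8 fell, with changes from -0.33 for CCT8 to -0.72 for CCT4, and CCT6B rose by 0.74 ± 0.15. CCT6B is a form known from the testis. Among 25 nuclear pore genes 15 fell and 1 rose, with a median of -0.53, as in NUP35 (-1.33), NUP107 (-1.06) and NUP210 (-0.96). Of 38 genes of hnRNP and SR splicing factors 20 fell and 0 rose, with HNRNPA1 falling by 1.41 ± 0.17 and SRSF3 by 0.74 ± 0.15. The list includes pseudogenes and near copies, whose probes may share signal with the expressed gene.

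Mitochondrial ribosomes make the proteins encoded in the mitochondrial genome. Of 76 tested genes, 41 fell (53.9%) and 2 rose, with a median of -0.29. The falls were led by MRPL42 (-1.01) and MRPL35 (-0.94), and the rises were those of MRPL55 (0.31) and MRPS21 (0.30). Both rises ended under median scaling (0.07 and -0.01) and without gefitinib array 2 (adjusted p = 0.0874 and 0.0546 by limma) or DMSO array 3 (0.0835 and 0.0578), and that of MRPS21 also without DMSO array 2 or gefitinib array 1. Mitochondrial import genes gave 9 falls and 0 rises of 23 (under median scaling 15 fell and 0 rose), as in the channel protein TOMM40 (-0.84) and its relative TOMM40L (-0.89). RNA polymerase subunits gave 13 falls and 1 rise of 32, led by POLR3G (-1.33) and POLR3K (-1.02) of RNA polymerase III. The rise was that of POLR2A, the catalytic subunit of RNA polymerase II, by 0.29 ± 0.08, which was -0.02 under median scaling. Of 28 citric acid cycle genes 9 fell, IDH3A (-0.79) first, and 3 rose (under median scaling 13 fell and 2 rose). The isocitrate dehydrogenases IDH1 and IDH2 rose by 0.81 ± 0.10 and 0.66 ± 0.14.

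The proteasome, which degrades tagged proteins, gave changes in both directions. Of 41 tested genes, 18 fell and 4 rose (under median scaling 30 fell and 2 rose). The 4 that rose were PSMB8, PSMB9 and PSMB10, the interferon-induced catalytic subunits, and the activator PSME1. PSMB9 read 7.57, 7.13 and 7.40 with DMSO and 9.30, 9.24 and 9.25 with gefitinib, with no overlap, and rose by 1.90 ± 0.11. PSMB10 rose by 1.37 ± 0.12 and PSMB8 by 0.58 ± 0.11. The subunits that they replace, PSMB5, PSMB6 and PSMB7, differed by 0.10 ± 0.09, -0.25 ± 0.09 and -0.24 ± 0.10. PSMB6 passed the test, a call that ended on leaving out any single array but DMSO array 3 (adjusted p from 0.0604 to 0.12 by limma). PSMB7 did not pass here (adjusted p = 0.0715 by limma) but did under median scaling (0.0193), without background correction (0.0245), with the authors' values (0.0394) and with the strict filter (0.049). Under median scaling PSMB8 and PSME1 no longer passed (0.35 and 0.33). The falls were led by the regulatory subunit PSMD14 (-0.88), a deubiquitinating enzyme.

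**Figure D2:**
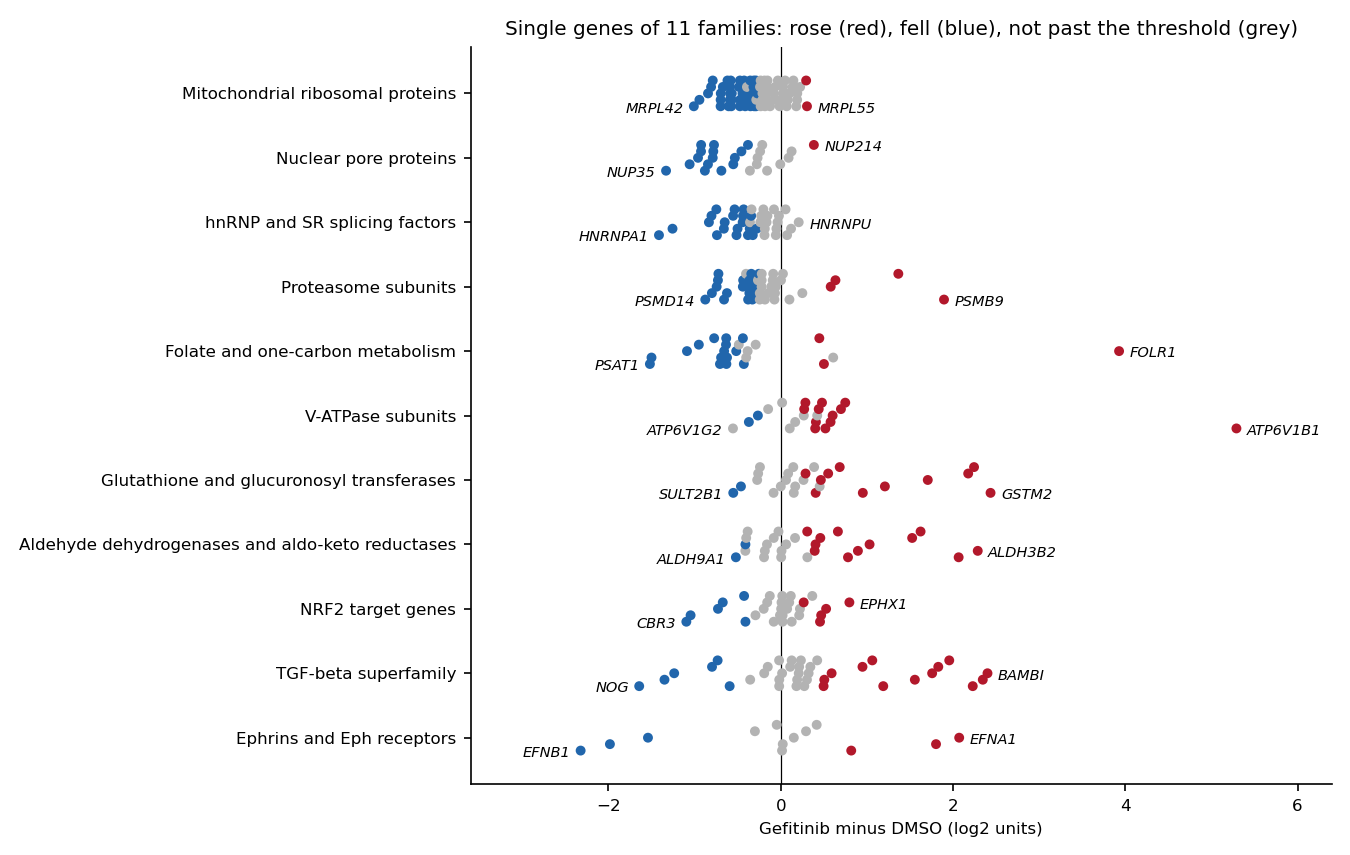
Log2 change of each tested gene in 11 families; red dots rose, blue dots fell and grey dots did not pass the threshold, and the outermost gene on each side is named. The mitochondrial ribosome, nuclear pore, splicing factor and folate families lie mostly to the left of 0, and the V-ATPase and transferase families mostly to the right, with FOLR1 and ATP6V1B1 far to the right of their families.

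The proton pump of lysosomes and other acid compartments is the V-ATPase. Of its 21 tested genes, 12 rose and 2 fell and 7 did not pass, with a median of 0.40. ATP6V1B1, the B subunit of kidney and airway acid-secreting cells, read 5.60, 4.86 and 4.77 with DMSO and 10.52, 10.18 and 10.39 with gefitinib, was above background on 2 of 3 DMSO arrays and rose by 5.29 ± 0.24 with no overlap. Without it the rises were small, from 0.27 for ATP6V0B to 0.75 for ATP6V1E1, and the accessory proteins ATP6AP1 and ATP6AP2 rose by 0.70 ± 0.09 and 0.44 ± 0.11, the latter with no call under median scaling (0.19). ATP6V0E2 fell by 0.26 ± 0.09, a call that ended on leaving out any single array but DMSO array 3 (adjusted p from 0.0692 to 0.145 by limma). The other fall was that of ATP6V0A2 by 0.37 ± 0.14, which no longer passed with the authors' values (0.0893) or without DMSO array 2 or 3 or gefitinib array 2 or 3 (0.0526 to 0.181). Under median scaling the median of the family was 0.10 and 4 genes rose and 2 fell. Promoters of 14 of these genes were available. The sequence CACGTGA, or TCACGTG on the other strand, is the core letters of the CLEAR element bound by TFEB, a regulator of lysosome genes. It occurred in 4 of the 14 promoters (28.6%) against 5.6% of the 10705 promoters of tested genes. Of all genes that rose 6.7% held it and of all that fell 5.69%. Of those that rose or fell by at least 1 log2 unit 5.39% and 5.54% held it. Other families held it too, as in 4 of 19 promoters of circadian genes and 6 of 32 of mitochondrial carriers. The windows below run from RefSeq's GRCh38.p14 and hold the motif in capitals, 8 letters where the matches on both strands overlap.
ATP6V0B promoter (GRCh38.p14 chr1:43974890-43974949, plus strand): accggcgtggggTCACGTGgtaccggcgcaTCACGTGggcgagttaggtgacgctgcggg
ATP6V0D1 promoter (GRCh38.p14 chr16:67481178-67481237, minus strand): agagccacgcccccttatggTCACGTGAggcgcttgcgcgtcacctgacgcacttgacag
ATP6V1G1 promoter (GRCh38.p14 chr9:114587689-114587748, plus strand): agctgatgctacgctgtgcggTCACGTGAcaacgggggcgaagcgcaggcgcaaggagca
ATP6V0E2 promoter (GRCh38.p14 chr7:149872878-149872937, plus strand): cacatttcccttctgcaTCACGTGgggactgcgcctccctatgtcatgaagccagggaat
ATP6V0B, ATP6V0D1 and ATP6V1G1 rose by 0.27 ± 0.08, 0.40 ± 0.10 and 0.29 ± 0.10, and under median scaling the values were -0.03, 0.18 and -0.01 with no call. The call of ATP6V0B ended without DMSO array 1 (adjusted p = 0.073 by limma) or gefitinib array 2 (0.0539). That of ATP6V1G1 ended without DMSO array 1 or 3 or gefitinib array 1 or 3 (0.0665 to 0.118). A match is only a run of letters, and binding was not measured. Of 33 genes of sphingolipid metabolism, part of which runs in lysosomes, 10 rose and 2 fell (5 and 5 under median scaling). Among those that rose were the lysosomal sialidase NEU1 (1.65) and the saposin precursor PSAP (0.98).

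The letters bound by ETS factors were searched in the same way. The motif CCGGAAG or, on the other strand, CTTCCGG stood in 28 of 68 promoters of mitochondrial ribosomal proteins (41.2%), in 11 of 24 of nuclear pore genes (45.8%), in 10 of 21 of mitochondrial import genes (47.6%) and in 9 of 23 of RNA polymerase genes (39.1%), against 17.8% of all promoters. In other families that fell it stood in 1 of 8 promoters of CCT genes, 5 of 31 of splicing factors, 2 of 17 of folate genes and 1 of 18 of purine and pyrimidine genes. It was not limited to families that fell. The family that held it most often was that of COPI and COPII vesicle coats, with 13 of 18 promoters (72.2%). Of the genes of these coats 7 rose and 2 fell (2 and 3 under median scaling). The motif also stood in 128 of 309 ZNF promoters (41.4%). Of all genes that fell 20.4% held it and of all that rose 14.6%, and of those that fell or rose by at least 1 log2 unit 16.2% and 7.35%. The windows chosen hold several copies or lie at the start site, with the motif in capitals.
MRPS34 promoter (GRCh38.p14 chr16:1773135-1773214, minus strand): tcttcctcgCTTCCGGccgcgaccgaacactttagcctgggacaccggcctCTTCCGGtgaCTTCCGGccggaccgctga
MRPS22 promoter (GRCh38.p14 chr3:139343894-139343953, plus strand): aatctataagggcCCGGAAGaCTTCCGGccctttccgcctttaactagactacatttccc
MRPL16 promoter (GRCh38.p14 chr11:59810759-59810818, minus strand): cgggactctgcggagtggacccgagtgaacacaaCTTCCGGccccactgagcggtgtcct
NUP107 promoter (GRCh38.p14 chr12:68686948-68687007, plus strand): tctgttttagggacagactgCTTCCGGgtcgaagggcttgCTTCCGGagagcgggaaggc
MRPS34, MRPL16, NUP107 and MRPS22 fell by 0.62 ± 0.15, 0.67 ± 0.11, 1.06 ± 0.09 and 0.39 ± 0.11. Among genes that fell by at least 1 log2 unit, 17.1% of promoters held the E2F letters GCGGGAA against 9.82% of all and 5.39% of those that rose by as much.

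Enzymes that clear foreign or reactive compounds were higher in part. Of 26 glutathione and related transferases 11 rose and 2 fell (7 and 4 under median scaling), with a median of 0.28. GSTM2, a glutathione transferase of the mu class, read 5.26, 4.80 and 5.59 with DMSO and 7.39, 7.63 and 7.94 with gefitinib, and GSTM1, its neighbour in the class, read 7.71, 7.32 and 7.61 with DMSO and 9.87, 9.75 and 9.76 with gefitinib. The groups of arrays did not overlap in either, and GSTM2 rose by 2.44 ± 0.27 and GSTM1 by 2.24 ± 0.13, though the members of this class are alike in sequence and a probe may read several. GSTA4 rose by 2.18 ± 0.17. GSTK1, the kappa form, was already at 11.58 with DMSO and rose by 1.71 ± 0.09. Aldehyde dehydrogenases and aldo-keto reductases gave 12 rises and 2 falls of 27 (7 and 6 under median scaling), led by ALDH3B2 (2.29) and ALDH1A1 (2.07). The targets of NRF2, the regulator of the antioxidant response, depended on the scaling. Of 29, 5 rose and 6 fell (1 and 9 under median scaling), with a median of 0.02. NQO1 and GCLM, standard targets, differed by 0.10 ± 0.10 and -0.01 ± 0.12, and of the multidrug exporters ABCC2, ABCC3 and ABCC4 the values were -0.67, -0.73 and -1.05.

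Retinoid genes, which make, carry or break down vitamin A compounds, moved in both directions with more rises. Of 29, 13 rose and 4 fell (10 and 5 under median scaling). The retinoid-induced genes PLAAT4 and RARRES1 rose by 2.99 ± 0.08 and 2.66 ± 0.12, as did the retinal dehydrogenase ALDH1A1. CYP26A1, which breaks down retinoic acid, rose by 1.82 ± 0.25 and its relative CYP26B1 fell by 1.01 ± 0.23. TGM2, a transglutaminase that retinoic acid induces in other cells, read 12.47, 12.50 and 12.46 with DMSO and 8.81, 9.21 and 8.83 with gefitinib and fell by 3.52 ± 0.11. All DMSO arrays were higher than all gefitinib arrays.

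Phospholipases cut membrane lipids. Among 28 phospholipase genes 12 rose and 3 fell (10 and 3 under median scaling). PLA2G10, a secreted phospholipase, rose by 3.34 ± 0.10, PLCD3 by 1.67 ± 0.14 and the phospholipases D PLD1, PLD2 and PLD3 by 0.96, 1.18 and 1.1. ACOX2, a peroxisomal oxidase of bile acid precursors, was above background on 3 of 3 DMSO arrays and 0 of 3 gefitinib arrays and was at least 12.4-fold lower. FAR1, which makes fatty alcohols for ether lipids, fell by 1.1 ± 0.15, and GPAT3, which starts triglyceride synthesis, by 2.34 ± 0.16. PTGIS, the prostacyclin synthase, rose by 2.96 ± 0.20.

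**Figure D3:**
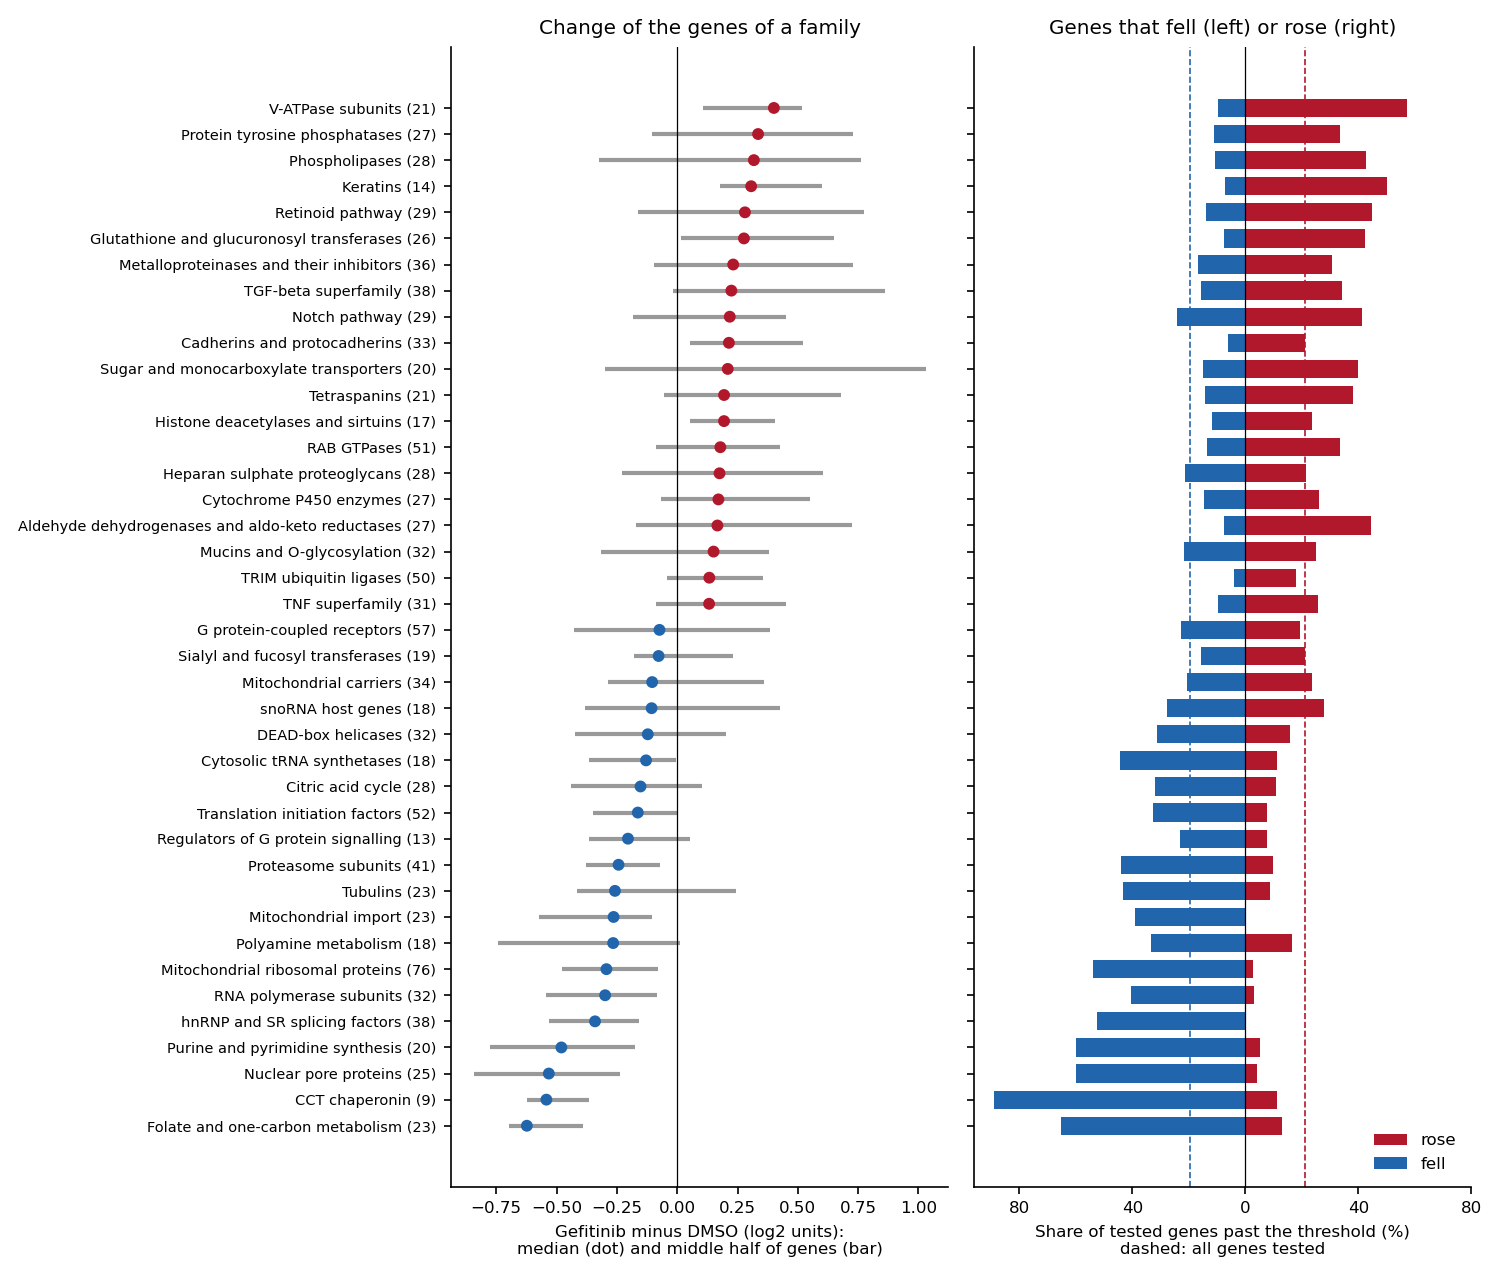
Left, median log2 change (dots) with the range from the 25th to the 75th percentile of the genes (bars) in the 20 families with the lowest and the 20 with the highest median, with the number of genes tested in brackets; right, the share that fell (blue) or rose (red), dashed lines giving all genes tested. Folate metabolism lies lowest at -0.62 and the V-ATPase highest at 0.40.

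Mucins are heavily glycosylated proteins of the cell surface and of secretions. Of 32 genes of mucins and O-glycosylation 8 rose and 7 fell (5 and 7 under median scaling), and the large rises were those of the mucins themselves. MUC1, a membrane mucin, read 9.22, 9.10 and 9.27 with DMSO and 12.36, 12.33 and 12.25 with gefitinib and rose by 3.12 ± 0.10, and MUC4 read 7.35, 7.52 and 7.74 with DMSO and 10.52, 10.74 and 10.45 with gefitinib and rose by 3.03 ± 0.12, or by 1.54 with the mean of its probes. MUC16 rose by 1.40 ± 0.12. No array of one group reached the other in any of the 3. Among the transferases that start O-glycans, GALNT16 and GALNT10 fell by 1.38 ± 0.10 and 1.26 ± 0.19. The core fucosyltransferase FUT8 fell by 1.17 ± 0.24 and the sialyltransferase ST6GAL1 rose by 1.5 ± 0.11. HAS3, a hyaluronan synthase, fell by 2.57 ± 0.10, and CEACAM6, a carcinoembryonic antigen relative, fell by 1.95 ± 0.11.

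Ephrins and their Eph receptors, which signal between touching cells, gave changes in both directions. EFNA1 and EPHA4 rose by 2.07 ± 0.10 and 1.80 ± 0.20, while the B ephrins EFNB1 and EFNB2 fell by 2.32 ± 0.13 and 1.54 ± 0.10, as did EPHA2 by 1.98 ± 0.13. Of the 13 tested, 7 did not pass. NRP1, a co-receptor of semaphorins and VEGF, fell by 1.2 ± 0.18, and of 26 semaphorins, plexins and neuropilins 7 rose and 3 fell (6 and 4 under median scaling), the rises led by SEMA3B (1.38) and PLXNB1 (1.26). The ecto-enzyme NT5E, which makes adenosine at the surface, fell by 1.91 ± 0.11, and ADORA2B, an adenosine receptor, fell by 2.01 ± 0.10. NT5E was picked after its values were seen.

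Of 33 cadherins 7 rose and 2 fell (7 and 2 under median scaling), with N-cadherin CDH2 rising by 1.2 ± 0.14 and E-cadherin CDH1 by 1.06 ± 0.09. Of 14 keratins 7 rose and 1 fell (3 and 1 under median scaling). KRT16 rose by 1.83 ± 0.13, KRT4 was at least 2.4-fold higher, and KRT18 fell by 0.82 ± 0.14. The tetraspanins TSPAN10 and TSPAN8 rose by 2.33 ± 0.18 and 1.61 ± 0.10. Among metalloproteinases and their inhibitors, TIMP2 rose by 1.68 ± 0.10 while TIMP4 fell by 2.39 ± 0.14, and MMP7, a matrix protease above background on 0 of 3 DMSO arrays, was at least 3.27-fold higher. CLIC3, a chloride channel-like protein, rose by 3.50 ± 0.11 and the chloride channel ANO1 fell by 2.76 ± 0.11.

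Among signalling families, the TGF-beta superfamily gave 13 rises and 6 falls of 38 (12 and 6 under median scaling). The pseudoreceptor BAMBI rose by 2.40 ± 0.14, the ligand TGFB2 by 1.96 ± 0.18, the inhibin subunit INHA by 2.23 ± 0.31 and FSTL1 by 2.35 ± 0.12. NOG, an inhibitor of BMPs, was above background on 3 of 3 DMSO arrays and 0 of 3 gefitinib arrays and was at least 3.12-fold lower. Of 46 Wnt pathway genes 13 rose and 9 fell (9 and 12 under median scaling), with WNT5A rising by 2.23 ± 0.17, WNT10A at least 4.01-fold higher, and the receptor ROR1 falling by 1.42 ± 0.15. Notch genes gave 12 rises and 7 falls of 29 (5 and 7 under median scaling), in which the ligand JAG2 rose by 1.01 ± 0.19 and JAG1 fell by 1.34 ± 0.16. Of 27 protein tyrosine phosphatases 9 rose and 3 fell (6 and 5 under median scaling), led by PTPRR (1.93), a phosphatase of ERK. TNFSF10, the death ligand TRAIL, rose by 2.57 ± 0.16, and its receptor TNFRSF10A fell by 1.55 ± 0.20. Of 33 p53 targets 10 rose and 8 fell (8 and 10 under median scaling), with TP53INP1 (2.48) and SESN1 (1.47) higher and AEN (-1.46) lower.

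Of transcription factors, SOX4 read 7.99, 7.91 and 7.90 with DMSO and 10.53, 10.64 and 10.43 with gefitinib, and FOXQ1 read 12.09, 11.94 and 11.98 with DMSO and 9.87, 9.92 and 9.90 with gefitinib. Both changed without overlap, SOX4 rising by 2.60 ± 0.15 and FOXQ1 falling by 2.10 ± 0.11. FOXD1 fell by 2.24 ± 0.26, and FOXO4 rose by 1.40 ± 0.09. FOXO3 rose by 0.57 ± 0.11, a call that ended under median scaling (0.28). PPARA rose by 0.92 ± 0.19 and PPARG fell by 1.67 ± 0.09. Of 368 zinc finger genes named ZNF, 48 rose (13.04%) and 33 fell (8.97%), against 22 and 41 under median scaling. Their median level with DMSO was 6.04, and dim genes passed less often, as given above for the bins of level. The methyltransferases EZH2 and SUV39H1 fell by 1.17 ± 0.14 and 1.33 ± 0.10, and KMT2E rose by 1.08 ± 0.21. ARID5B, a DNA-binding cofactor of a histone demethylase, rose by 3.16 ± 0.18. Circadian genes gave 2 rises and 4 falls of 20 (0 and 7 under median scaling).

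Carriers of the cell membrane and parts of the cytoskeleton moved in small groups. SLC16A4, a monocarboxylate carrier relative, read 6.68, 5.86 and 6.62 with DMSO and 8.51, 8.49 and 8.40 with gefitinib and rose by 2.08 ± 0.20, and the glucose carrier SLC2A3 rose by 1.42 ± 0.10. Of 20 genes of sugar and monocarboxylate carriers 8 rose and 3 fell. The large neutral amino acid carrier SLC7A5 and its partner SLC3A2 rose by 0.93 ± 0.10 and 0.79 ± 0.10, while the glutamine carrier SLC1A5 fell by 0.68 ± 0.09. MYL9, a light chain of contractile myosin, rose by 2.63 ± 0.13 and the non-muscle heavy chain MYH14 by 1.81 ± 0.12. Of 34 myosin genes 12 rose and 4 fell (8 and 5 under median scaling). Tubulins and their partners gave 2 rises and 10 falls of 23, as in TUBB4B (-0.78) and TUBG1 (-0.64) of the centrosome, while TUBB3 rose by 0.59 ± 0.11, a call that ended under median scaling (0.34). Among 51 RAB proteins, which direct vesicles, 17 rose and 7 fell (7 and 8 under median scaling), led by RAB32 (1.39). The orphan receptor GPRC5A rose by 2.31 ± 0.13 and the lysophosphatidic acid receptor LPAR1 fell by 1.59 ± 0.13.

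Further genes among the 40 largest changes in each direction had no family here. NLRP7, an inflammasome-related protein, rose by 3.64 ± 0.13, KANK4 by 3.53 ± 0.19, FILIP1L by 3.52 ± 0.13, the lysyl oxidase LOXL4 by 3.45 ± 0.12 and the microtubule protein TPPP3 by 3.41 ± 0.15. PDZK1, a scaffold of transporters, rose by 3.47 ± 0.22, and PDZK1IP1 was at least 9.06-fold higher. SLC47A2, an exporter of organic cations, rose by 3.32 ± 0.16. Lower were PHLDA1 by 2.62 ± 0.12, the EGFR ligand HBEGF by 2.28 ± 0.13, the synaptic protein NPTX1 by 2.54 ± 0.13, the galanin gene GAL by 2.22 ± 0.16, the phosphate carrier SLC20A1 by 2.14 ± 0.12, the kinase AK4 by 2.29 ± 0.13 and IGFBP4 by 2.16 ± 0.11. IGFBP3, a binding protein of insulin-like growth factors, was among the brightest changed genes and read 11.70, 11.60 and 11.53 with DMSO and 14.06, 13.98 and 13.94 with gefitinib. HMGA1, a chromatin protein, was bright too and read 13.37, 13.43 and 13.45 with DMSO and 11.95, 11.95 and 11.94 with gefitinib. IGFBP3 rose by 2.38 ± 0.10 and HMGA1 fell by 1.47 ± 0.11 (changed by -0.70 with the mean of its probes), in both with all arrays of a group apart from the other.

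A smaller set crossed the detection limit. Above background on all 3 arrays of one group and on none of the other were 165 genes with gefitinib and 60 genes with DMSO, of which 126 and 45 passed the test. The others did not pass, some with hardly any change, such as SIRPG (0.004). DMSO arrays had 20917 to 22114 probes above background and gefitinib arrays 21815 to 22135. The part of this in the balance of both counts was not tested. The brightest that appeared were IGFBP5, TCIM, PDZK1IP1 and GASK1B, followed by PLEKHS1 and GABRP, a GABA receptor subunit. On the background-corrected scale the first of these were at least 18.3-, 14-, 9.06- and 7.47-fold higher. With the authors' values IGFBP5, TCIM, PDZK1IP1 and GASK1B rose by only 2.51, 2.18, 1.77 and 1.46 log2 units, which is less than these bounds. The phosphatase DUSP4, the neurotensin receptor NTSR1 and TCN1, a carrier of vitamin B12, were below background with gefitinib and were at least 3.86-, 2.91- and 2.52-fold lower. With the authors' values they changed by only -0.95, -0.66 and -0.53 log2 units.

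The effect of gefitinib in co-culture was measured on the other 6 arrays, which share none with the effect described above. Of the 5511 genes called in monoculture, 5049 had the same sign in co-culture, and 2317 were also called there with that sign, while 20 were called in the opposite direction. Co-culture itself had 20.1% of genes called. A test of the difference between both effects passed for 983 of 13514 genes (7.27%). With their sign kept, 451 of them had the larger value in monoculture and 532 the smaller. Median scaling moved the median difference from 0.014 to -0.29 and made these counts 82 and 1586, so the direction of small differences depends on the scaling. By size, 944 genes called in monoculture passed this test. The effect was smaller in co-culture or opposite for 935 of them and larger for 9. Being picked by their call in monoculture, these genes say nothing of genes at large. Without co-culture gefitinib array 2 or 3 the 983 calls became 620 and 567. TGM2 fell by 3.52 ± 0.11 alone and changed by -1.12 in co-culture (difference adjusted p = 4.53e-05 by limma). PHLDA1 changed by -2.62 and -0.46, NLRP7 by 3.64 and 1.60 and EPHA2 by -1.98 and -0.47, with adjusted p of the difference of 0.000144, 0.000263 and 0.00131. EGR1, an immediate early gene, changed by -1.18 alone and 2.21 in co-culture, and the lipid exporter ABCA1 by 1.14 and -0.33. ATP6V1B1 changed by 5.29 and 5.07, a difference that did not pass (adjusted p = 0.768). The medium and the gefitinib schedule may differ between the cultures, so that culture and handling cannot be told apart.

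**Figure D4:**
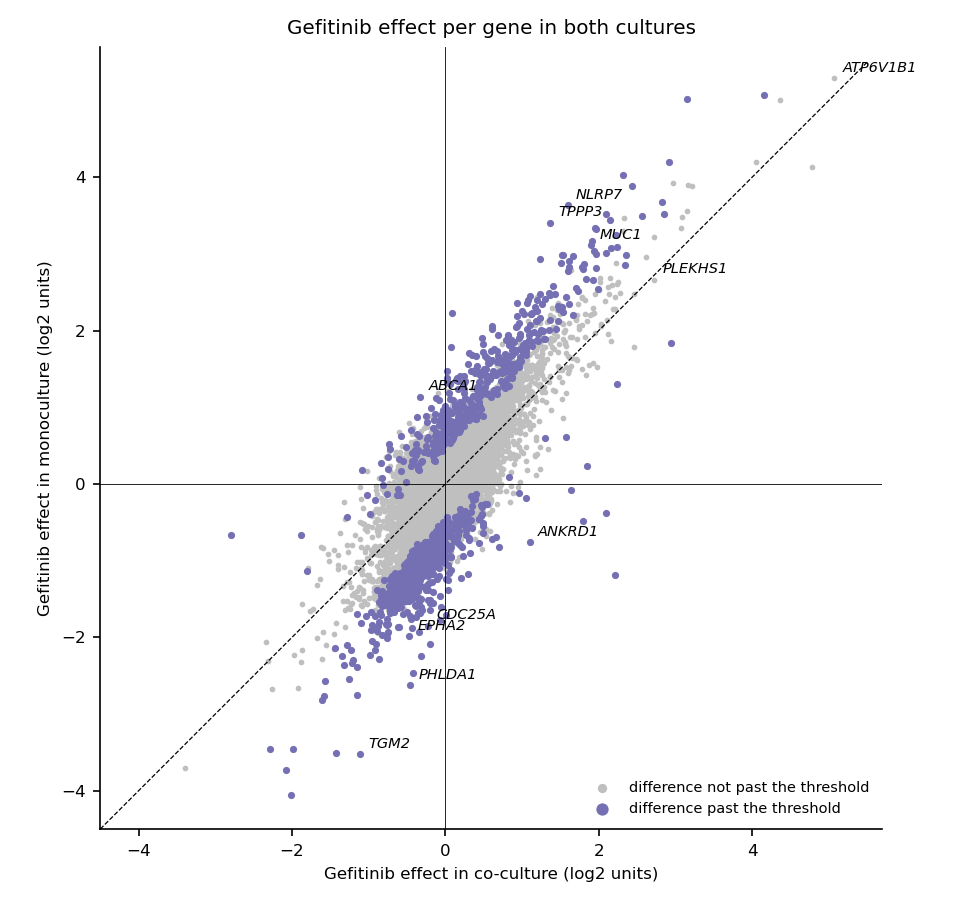
Log2 gefitinib effect per gene in monoculture (vertical) against co-culture (horizontal); purple genes differ between the cultures, grey ones did not pass that test, and the dashed line marks equality. TGM2, PHLDA1 and EPHA2 lie farther from 0 in monoculture, ATP6V1B1 lies near the line, and ANKRD1 falls in monoculture and is higher in co-culture.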

How the data were processed

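The deposited table of unprocessed values gives, for each of 12 Illumina arrays, an intensity per probe that the authors had neither logged nor scaled, and a detection p-value whose origin the labels do not state. The authors' normalized intensity values, deposited in a further table, were an alternative. Signals were background-corrected with limma 3.58.1 (R 4.3.3) by the normal-exponential model with an offset of 16, quantile normalized and put on the log2 scale, which is not a deposited log2 value. Of 48102 probes with values, those with detection p under 0.05 on 3 or more of 12 arrays passed (25510), and 7221 of these without a single gene name in the platform annotation were left out of the gene tests. The brightest passing probe stood for each of 13514 genes. Mean signals of the 6 monoculture arrays ran from 377.4 to 424.9, and the number of arrays limits the precision.

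Group means of all 12 arrays were fitted with limma, with 8 residual and 3.3 prior degrees of freedom, and two-sided tests were corrected over all genes with the Benjamini-Hochberg method. On simulated data with 13514 genes, 73% of changes of 1 log2 unit and 31% of changes of 0.5 were recovered. A gene undetected in one group has only a bound of its fold, computed from the lowest signal of any detected probe on those arrays. The bound holds on the background-corrected scale only. The authors' values gave smaller changes, as in ACOX2 (-2.03 log2 units) and NOG (-0.67). Genes were put into 72 families by symbol. Promoters of 250 bases before to 50 after the start are RefSeq's for GRCh38.p14 and were available for 10705 tested genes, and 11 motifs were searched on both strands, overlapping matches included.

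The members, families and motifs were chosen with earlier results of these data known. Named genes were the 40 with the largest change each way among called genes with groups apart, up to 5 rises, 5 falls and 3 members nearest 0 in each family, the brightest 10 that crossed the detection limit and the brightest 15 changed by at least 1 log2 unit each way, markers, and the 10 with the smallest p for the difference. Named outside that rule, after their values were seen, were NT5E, ANKRD1, ALPP, PSG4, PSG5, TERC, RN7SK, the small nucleolar RNAs, the genes whose promoters are shown, and ATP6AP2, IMPDH2, PRPS2, PLD1, SMOX, SRSF3, NQO1, PSMB5, PSMB6 and PSMB7 as further members of their families. Same-numbered arrays of the groups did not deviate together (correlations of -0.0091, 0.013 and 0.00014), so the numbers were not used as pairs. Alternatives were the authors' values, median scaling, signals without background correction, no or a strict filter, the mean of probes, a replicate block, array weights, the monoculture arrays alone, a fold of at least 1.5 and leaving out each array.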

Additional observations from a re-analysis of the deposited data

Results flagged for a closer look

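By limma's test of the difference itself, the gefitinib effect in monoculture differed from that in co-culture for 81 of the 205 genes named here. This share says nothing of genes at large, since some were chosen for the smallest p of this same difference and most others for a large change in monoculture. The values that follow are the log2 effect in monoculture minus that in co-culture, negative where a fall was deeper alone. With median scaling the median difference over all genes was -0.29, which bears on each small value. IGFBP5, GASK1B, WNT10A, PSG5 and MMP7 were below background on all DMSO monoculture arrays, and DUSP4 on all gefitinib ones. Their monoculture effects, and so these differences, are less certain in size. With the authors' values the effect was smaller, as in WNT10A (0.93 in place of 2.07) and DUSP4 (-0.95 in place of -2.09). The rise of MMP7 was larger in co-culture (-1.11), and EGR1 and ANKRD1 were lower with gefitinib alone and higher with it in co-culture. Among metabolism and nucleotide synthesis these were GPAT3 (-1.12), AMD1 (-1.11), AK4 (-1.08), TYMS (-1.06), FAR1 (-0.94), PSAT1 (-0.93), ODC1 (-0.74) and MTHFD2 (-0.71). Smaller ones in that group were GMPS (-0.69) and PRPS2 (-0.58). Among nuclear transport, splicing, folding and organelle genes these were KRT18 (-1.04), HNRNPA1 (-1.04), NUP35 (-1.02), POLR3G (-0.82), POLR3K (-0.68), NUP107 (-0.66), PSMD14 (-0.64) and TUBB4B (-0.58). Smaller ones in that group were TOMM40 (-0.54) and MRPL35 (-0.51). Among transcription and chromatin genes these were EGR1 (-3.39), FOXD1 (-1.92), ANKRD1 (-1.86), AEN (-1.39), EZH2 (-1.02), FOXQ1 (-0.82), SUV39H1 (-0.80) and PPARG (-0.70). Among surface, signalling and secreted proteins that fell these were TGM2 (-2.41), PHLDA1 (-2.16), DUSP4 (-1.89), EPHA2 (-1.51), HBEGF (-1.41), NPTX1 (-1.29), ADORA2B (-1.25) and GAL (-1.24). Smaller ones in that group were IGFBP4 (-1.24), TIMP4 (-1.24), LPAR1 (-1.21), ANO1 (-1.18), HAS3 (-1.0), NT5E (-0.94), SLC20A1 (-0.70) and EFNB2 (-0.68). Among transporters, channels and lipid or detoxifying enzymes that rose these were ABCA1 (1.47), PLA2G10 (1.39), SLC47A2 (1.37), CYP26A1 (1.33), PLCD3 (1.15), CLIC3 (0.93), NEU1 (0.86) and SLC2A3 (0.81). Smaller ones in that group were RARRES1 (0.73), GSTM1 (0.72), GSTK1 (0.67) and PLAAT4 (0.63). Among signalling, surface and secreted proteins that rose these were INHA (2.14), GASK1B (1.69), WNT10A (1.46), PSG4 (1.42), LOXL4 (1.30), IGFBP5 (1.28), SEMA3B (1.23) and MUC1 (1.21). Smaller ones in that group were PSG5 (1.15), MUC4 (1.1), EFNA1 (0.97), PTPRR (0.95), ALPP (0.86), GPRC5A (0.78), TIMP2 (0.63) and TSPAN8 (0.62). Among other genes that rose these were NLRP7 (2.05), TPPP3 (2.04), KANK4 (1.43), ARID5B (1.26), FOXO4 (1.16), MYH14 (0.98), SESN1 (0.74) and FILIP1L (0.67).

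Of the 7221 probes above background that carry no single gene name, 1278 (17.7%) passed the threshold in monoculture, 544 higher and 734 lower, with 148 higher and 145 lower by at least 1 log2 unit. What they read was not analysed here.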

How the results depend on the processing

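The number of genes called for gefitinib in monoculture, 5511, was 4897 to 5048 on leaving out single arrays, 5830 with the authors' values, 5880 without background correction, 4982 after median scaling, 5206 without a filter, 5734 with the strict filter and 5039 with the monoculture arrays alone, and 3289 with a fold of at least 1.5 added. With the replicate number as a block it was 5341. The calls for the difference between both effects, 983, were 1462 with the authors' values, 1600 without background correction, 1668 after median scaling, 709 with the replicate block and 567 to 930 without single arrays. They were lowest without co-culture with gefitinib array 3 (567) and array 2 (620). Without monoculture DMSO array 1 they were 679. For ATP6V0B, ATP6V1G1, MRPS21 and POLR2A the sign turned under median scaling, to -0.035, -0.0080, -0.0069 and -0.022. Of 3075 pairs of named gene and alternative, 2996 kept the call, 66 lost it, 9 gained one and 4 turned sign, and the cause was not tested. A turn of sign was counted only where the gene was called in the main fit or in the alternative. The median of 0.0028 of all genes moved to -0.12 with median scaling, and family medians near 0 can take either sign there. With the mean of probes 4 calls ended, those of ATP6V0B, MAT2B, MRPL55 and MRPS21. Over all genes of the simulation 31% of changes of 0.5 log2 units were recovered, so such a change can be missed at this number of arrays. That share was not split by level, and the median standard error was 0.210 in the dimmest bin and 0.101 in the brightest.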

Other observations

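Small nucleolar RNAs were chosen for a look after their values were seen. Of 126 tested, 3 rose and 33 fell, with a median of -0.23. The 3 that rose were U3 genes, SNORD3A (1.68 ± 0.12), SNORD3C (1.83 ± 0.21) and SNORD3D (1.48 ± 0.20), which are near copies, so a probe may read several. Among those that fell, SNORD16 changed by -1.63 ± 0.23. TERC, the RNA of telomerase, fell by 1.49 ± 0.18, and RN7SK, a small RNA that holds back transcription elongation, rose by 1.16 ± 0.18. Of 79 tested microRNA genes 5 rose and 2 fell, and of 372 long non-coding RNA genes 49 rose and 30 fell.

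A few other genes were picked after their values were seen. PSG4, a pregnancy-specific glycoprotein, changed by 2.36 ± 0.15 (1.11 with the mean of its probes), its relative PSG5 was at least 4.49-fold higher, and ALPP, the placental alkaline phosphatase, changed by 2.33 ± 0.12.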
